A study of Mus musculus with 6 samples.

Results

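The adult globin genes of the mouse and the chaperone of alpha-globin were examined in RNA-seq of bone marrow cells taken fresh from the femurs of wild-type mice. The members were listed by gene name as Hba-a1, Hba-a2, Hbb-bs, Hbb-bt and Ahsp. Of these 5 members, 4 were found by name among the 54532 genes of the table, and Ahsp was not analysed here. The 3 control libraries came from mice with no treatment. The 3 unloaded libraries came from mice kept for 4 weeks under hindlimb unloading, a model of bone loss from disuse that keeps weight off the hind legs. All 6 libraries were of wild-type genotype. Not given in the sources used here were strain, age, any pooling of animals and any removal of red cells before extraction, and no label says that the replicates were separate animals. The p-values therefore measure the spread between these samples, which may be technical.

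Adult hemoglobin is a tetramer of alpha and beta chains, each holding a heme group that binds oxygen. Erythroblasts of the marrow make both chains in near balance, and free alpha chains are unstable and harm the cell unless a chaperone holds them. In the mouse the alpha chain is encoded by a pair of near-identical genes, Hba-a1 and Hba-a2, and the beta chain by a pair that is called Hbb-bs and Hbb-bt in the reference strain. Globin mRNA is long-lived and persists in reticulocytes, which have lost their nucleus.

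The genes of each chain lie close together. On mm10, Hba-a1 (ENSMUSG00000069919) spans chromosome 11 from 32283511 to 32284465 and Hba-a2 (ENSMUSG00000069917) spans 32296489 to 32297298, both on the plus strand. Hbb-bt (ENSMUSG00000073940) spans chromosome 7 from 103812524 to 103813996 and Hbb-bs (ENSMUSG00000052305) spans 103826534 to 103828096, both on the minus strand. In the GENCODE M21 annotation, the main transcript of each gene has 3 exons. The 4 members had the same positions in that annotation as in the deposited table.

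The coding sequences of a pair differ by a single base, so a read over most of the coding part cannot tell the copies apart. The alpha copies differ by C381T among 426 coding bases before the stop codon, where the Hba-a1 base stands first and positions are counted from 1 at the A of the start codon. This base lies in exon 3, at position 32284343 of chromosome 11 in Hba-a1 and 32297160 in Hba-a2. The beta copies differ by C417T among 441 coding bases, with the Hbb-bs base first, at 103826692 of chromosome 7 in Hbb-bs and 103812683 in Hbb-bt, again in exon 3. Both changes fall at the third position of a codon. Outside the coding part the transcripts of a pair differ too, and the longest shared runs were 415 bases for alpha and 430 for beta. The stretches around the coding differences are shown, with the differing base in capitals, since no other coding base before the stop codon separates the copies. They are read from GENCODE M21 transcripts on mm10, at chr11:32284313-32284373 and chr11:32297130-32297190 (plus strand) and at chr7:103826668-103826722 and chr7:103812659-103812713 (minus strand):
Hba-a1: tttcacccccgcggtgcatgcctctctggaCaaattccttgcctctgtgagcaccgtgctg
Hba-a2: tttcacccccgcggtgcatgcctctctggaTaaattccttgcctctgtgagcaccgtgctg
Hbb-bs: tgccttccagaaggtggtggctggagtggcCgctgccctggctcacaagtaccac
Hbb-bt: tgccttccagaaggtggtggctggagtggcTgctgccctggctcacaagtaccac

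Much of each transcript was shared with its partner. Of all stretches of 100 bases, 74.5% of those in the Hba-a2 transcript also occurred in the Hba-a1 transcript, and 54.8% of those in Hbb-bt also occurred in Hbb-bs. With stretches of 150 bases these shares were 65.7% and 50.7%, and the read length is not given in the sources used here. The Hba-a1 model begins further upstream, with 196 bases before the start codon against 35 in Hba-a2. The genome itself hardly differs there, since the RefSeq promoter windows of the alpha copies share a run of 297 of 300 bases. For the beta copies the longest shared run in these windows was 14 bases. If reads that align to both copies were dropped, the levels of all 4 genes and the sums of each pair lack them, by unequal amounts.

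Promoters of the 4 genes were matched by symbol in RefSeq windows of GRCm38.p6, the build of mm10. In the 250 bases before the start, searched on both strands, each of the 4 held the motif CCAAT, the motif CACCC and the motif TATAA. These occurred in 33.8%, 52.0% and 22.8% of all 32851 windows. AGATAA, a form of the motif bound by GATA factors, was found in the Hbb-bs window and not in the other 3, against 9.99% of all windows. These are matches of letters and were not tested as binding sites. The parts just before the starts of the main transcripts of Hba-a2 (chr11:32296389-32296488, plus strand) and Hbb-bs (chr7:103827929-103828011, minus strand) are shown because they carry this arrangement, with the matches to these 3 motifs in capitals:
Hba-a2: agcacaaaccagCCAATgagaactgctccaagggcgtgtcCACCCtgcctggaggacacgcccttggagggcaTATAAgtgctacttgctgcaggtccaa
Hbb-bs: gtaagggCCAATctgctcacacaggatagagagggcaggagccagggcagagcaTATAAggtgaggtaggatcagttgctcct
The Hbb-bs stretch lies inside the annotated gene, in the first intron of a transcript that starts further upstream. In Hbb-bs the CACCC match lies 90 to 86 bases before the start, just outside the part shown.

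Libraries held 15850986 to 17775506 counts. Neutrophil markers were the most abundant of the cell type lists, with summed levels of 54704 to 62841 CPM (counts scaled to a fixed total per library with TMM factors) in controls and 51074 to 62754 CPM in unloaded libraries. The unloaded 1 library stood apart, with 0.384% of counts on mitochondrially encoded genes against 0.981% to 1.21% in the other 5, so fold changes without it are given where it weighs on them. As the RNA came from whole marrow, fewer cells of a type and less RNA per cell cannot be told apart.

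All 4 adult globins had a higher mean in unloaded than in control marrow, and none passed the quasi-likelihood test of edgeR with adjustment over all genes. The count of members called was 0 of 4, against 0% of the 15015 genes tested. At an unadjusted p under 0.05 there were 3 of 4, all higher, against 2.67% of all genes tested. As the members were chosen with earlier results known and come in near-identical pairs, such counts are a description. All 4 had passed the filter on low counts. For 2 of the 4, Hba-a1 and Hbb-bs, each unloaded library lay above each control library, against 5.46% of genes tested. In the other direction, 0 of 4 had an unadjusted p under 0.05 and 0 of 4 lay below every control, against 3.18% and 6.4% of genes tested. Fold changes were positive for 4 of 4 and for 51.2% of all genes tested, with median log2 fold changes of 0.50 and 0.01. By DESeq2, 1 of the 4 (Hbb-bs) was called, against 0.0733% of genes called as higher. By limma-voom 0 of 4 were called. Without a low-count filter 2 of 4 were called (Hbb-bs and Hbb-bt), against 0.326% of genes. In that fit the SEs of the 4 genes were nearly the same, at 0.125 to 0.128, against 0.134 to 0.439 in the main fit. Its calls thus take little account of how far each gene varied between libraries. With the replicate number as a block 0 of 4 were called, against 0.00666% of genes.

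Hba-a1, which carried most of the alpha counts, stood at 1727, 1654 and 2065 CPM in controls 1, 2 and 3 and at 2657, 2817 and 2072 CPM in unloaded 1, 2 and 3. The groups did not overlap, but unloaded 3 was level with control 3. The means were 1816 ± 219 and 2515 ± 392 CPM (SD, n = 3). The log2 fold change was 0.47 ± 0.14 (SE), which is 1.39-fold. Adjusted p-values were 0.724 by edgeR and 0.202 by DESeq2.

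Hbb-bs, the main source of beta counts, stood at 1216, 1274 and 1506 CPM in controls and at 2028, 2161 and 1647 CPM after unloading. Unloaded 1 and unloaded 2 were well above every control, and unloaded 3 was above the highest control by less than the SD of either group. Its means were 1332 ± 154 and 1945 ± 267 CPM (SD, n = 3). The log2 fold change was 0.55 ± 0.13 (SE), or 1.46-fold. Adjusted p-values were 0.598 by edgeR and 0.0374 by DESeq2.

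Hbb-bt, the other beta gene, was read at 131, 206 and 233 CPM in controls and at 226, 363 and 238 CPM in unloaded libraries. The groups overlapped, with control 3 above unloaded 1, and unloaded 2 stood clear of the rest. Its log2 fold change of 0.54 ± 0.22 (SE) was close to that of Hbb-bs, with an edgeR adjusted p of 0.805. It was 0.29 without unloaded 2, 0.33 without control 1, 0.66 without unloaded 1 and 0.71 without control 3.

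Hba-a2, the other alpha gene, varied most. It was at 142, 145 and 231 CPM in controls and at 244, 354 and 66.9 CPM in unloaded 1, 2 and 3, so the unloaded group held both the highest and the lowest of the 6 values. The log2 fold change of 0.36 ± 0.44 (SE) was smaller than its error (edgeR adjusted p = 0.935). It was -0.16 without unloaded 2, 0.79 without unloaded 3, 0.62 without control 3 and 0.23 without control 1. By limma-voom on all 6 libraries it was 0.09. Its direction therefore rests on single libraries.

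**Figure D1:**
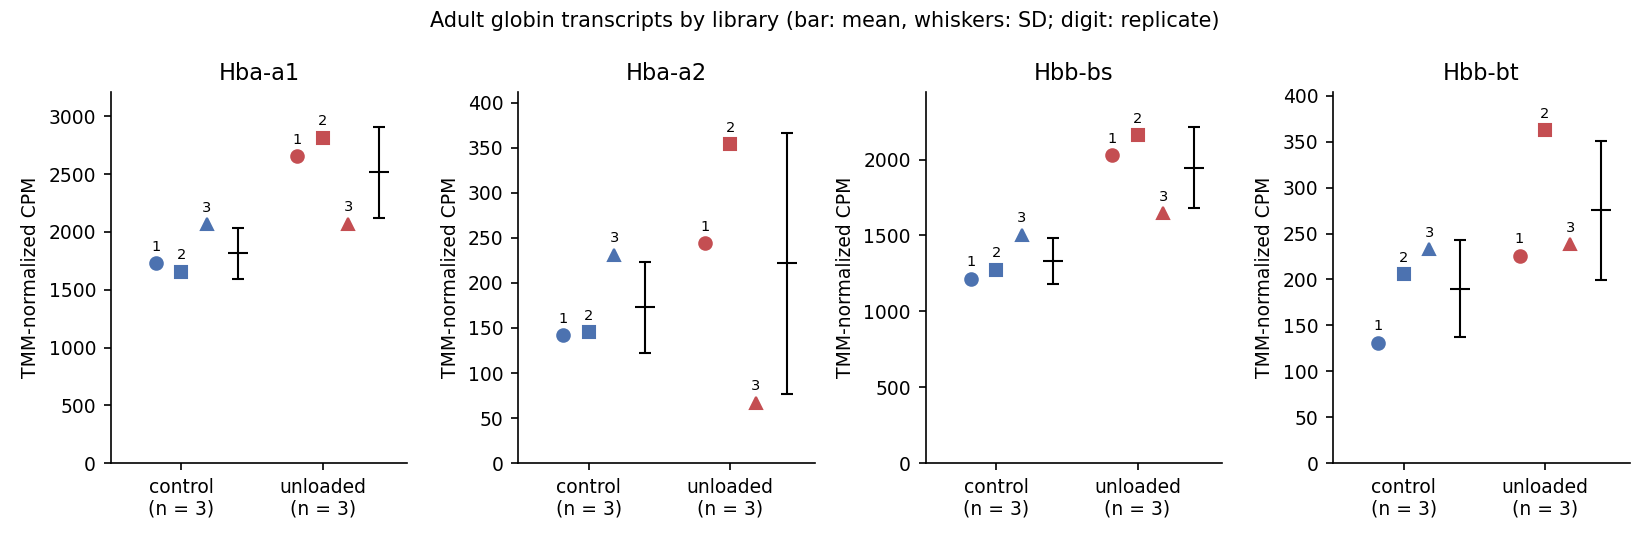
TMM-normalized CPM of Hba-a1, Hba-a2, Hbb-bs and Hbb-bt in each library, with blue points for control and red points for unloaded libraries, digits for the replicate, and mean ± SD (n = 3) beside each group. Hba-a1 and Hbb-bs show unloaded libraries at or above the highest control, while Hba-a2 is at 66.9 CPM in unloaded 3.

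With the copies of a chain summed to 1 row each before the fit, the log2 fold change was 0.46 ± 0.16 (SE) for alpha and 0.55 ± 0.14 for beta. Neither passed, with edgeR adjusted p of 0.80 and 0.598. These sums do not depend on which copy a shared read was assigned to. They would lack any shared reads that were dropped in counting, which was not tested. Over the settings that kept all 6 libraries, Hba-a1 ran from 0.46 to 0.49 and Hbb-bs from 0.54 to 0.57. Without unloaded 1 they were 0.43 and 0.52. With any library left out they ran from 0.38 to 0.59 and from 0.46 to 0.65, lowest without unloaded 2 and highest without unloaded 3 for Hba-a1 and for Hbb-bs.

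**Figure D2:**
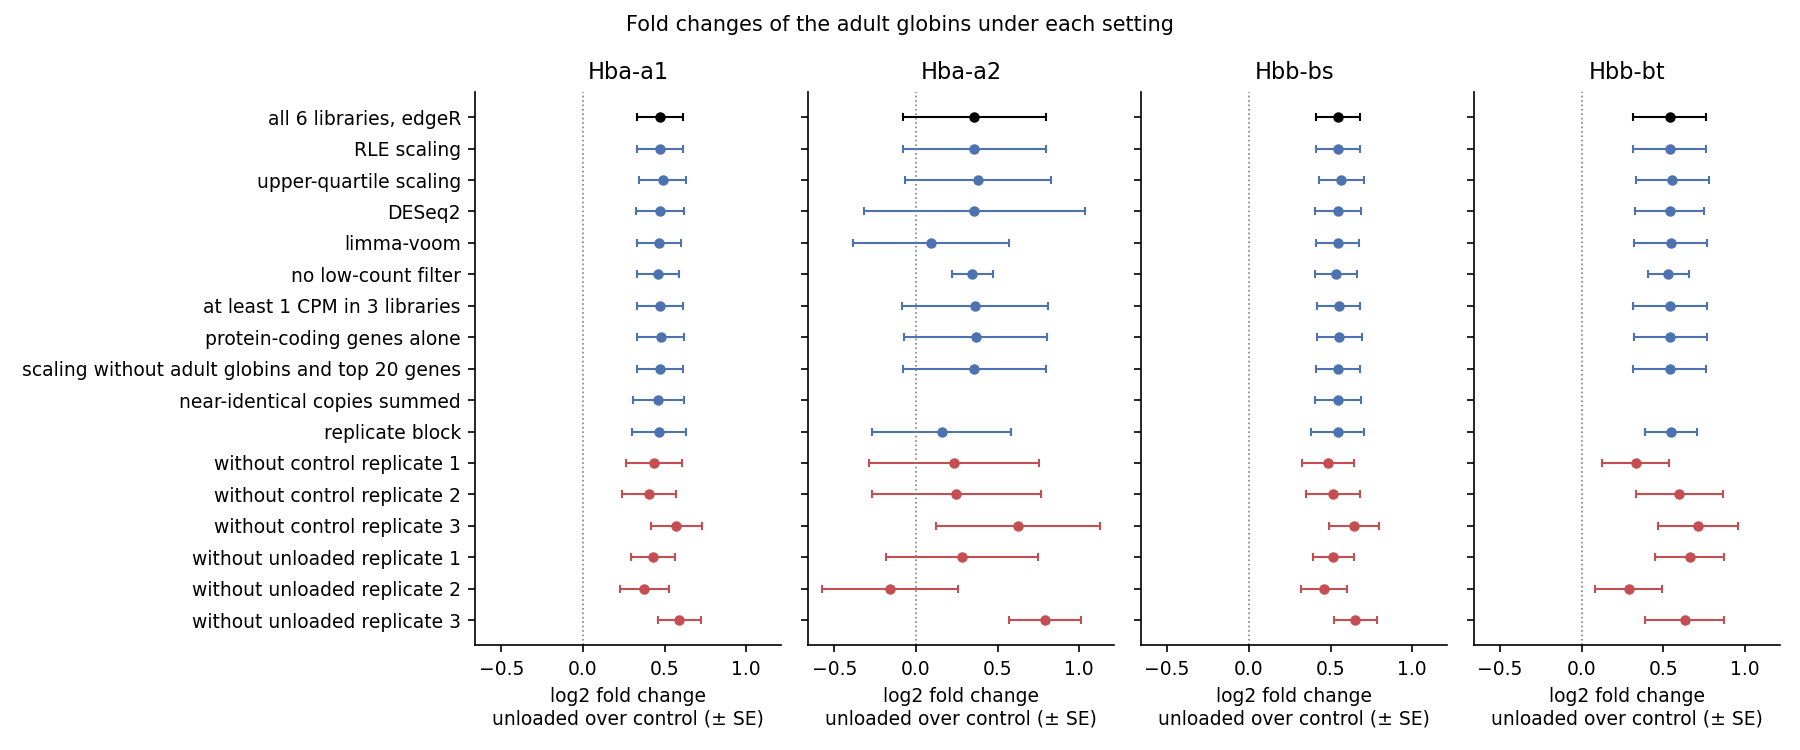
Log2 fold change of unloaded over control with its SE for each adult globin (horizontal axis), under each setting (vertical axis), in black for the fit to all 6 libraries, in blue for other settings and in red with a library left out. Hba-a1 and Hbb-bs stay between 0.38 and 0.65, and Hba-a2 reaches -0.16 without unloaded 2.

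Per kilobase of the deposited gene length, Hba-a1 stood first, Hbb-bs next, and Hbb-bt and Hba-a2 far below. Length scaling does not correct for shared reads that may have been dropped, and the share of a transcript that differs from its partner was unequal, so the order of these levels holds for the counts as deposited. In controls Hba-a1 was at 2236 ± 270 CPM per kilobase and Hbb-bs at 1734 ± 200 (SD, n = 3), and Hba-a1 was the higher in 6 of 6 libraries. Hbb-bt at 270.2 ± 74.8 and Hba-a2 at 259.2 ± 75.9 CPM per kilobase did not differ beyond their spread in controls. After unloading the means were 3098 ± 483 for Hba-a1 and 2533 ± 347 for Hbb-bs. They were 392 ± 108 for Hbb-bt and 332 ± 217 for Hba-a2, which again did not differ beyond their spread. Unloaded 3 had the widest gap between these minor genes, at 339 for Hbb-bt and 100.3 for Hba-a2, while in unloaded 1 and unloaded 2 Hba-a2 was the higher.

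Summed over the 4 genes, adult globins took 0.316%, 0.322% and 0.411% of all counts in controls 1, 2 and 3. They took 0.510%, 0.584% and 0.399% in unloaded 1, 2 and 3. Unloaded 1 and unloaded 2 were above every control, and unloaded 3 was just under control 3. The exact 95% binomial interval was at most 0.0037 percentage points to either side in each library. Without molecular identifiers on the reads, such intervals cover counting error alone. The spread between libraries was thus far wider than counting error. The log2 difference of the share was 0.50, and 0.47 without unloaded 1. Since the members were chosen with earlier results known, the sum is described without a p-value.

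Alpha counts exceeded beta counts in each of the 6 libraries, and the balance of the chains did not differ between the groups beyond its spread. The ratio of alpha counts (Hba-a1 and Hba-a2) to beta counts (Hbb-bs and Hbb-bt) was 1.39, 1.22 and 1.32 in controls 1, 2 and 3. It was 1.29, 1.26 and 1.13 in unloaded 1, 2 and 3. The lowest ratio was in unloaded 3 and the highest in control 1, and the groups overlapped. The means were 1.31 ± 0.0863 and 1.23 ± 0.0807 (SD, n = 3), a log2 difference of -0.09 with a two-sided exact permutation p of 0.4. The smallest p that 3 libraries against 3 allow is 0.1. The log2 difference was -0.05 without control 1, -0.04 without unloaded 3 and -0.14 without control 2. As a share, alpha made up 58.1%, 54.9% and 56.9% of adult globin counts in controls. It made up 56.3%, 55.7% and 53.2% after unloading, each with an exact 95% interval of at most 0.42 percentage points to either side.

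Other ways of taking the balance gave the same direction. Per kilobase of gene length the ratio averaged 1.25 ± 0.0841 in controls and 1.17 ± 0.0859 in unloaded libraries (SD, n = 3; exact permutation p = 0.4). With the major genes alone, Hba-a1 over Hbb-bs was 1.42, 1.30 and 1.37 in controls and 1.31, 1.30 and 1.26 after unloading (exact permutation p = 0.3). This version leaves out Hba-a2, which was low in unloaded 3, and unloaded 3 still had the lowest ratio.

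The split within the alpha pair set unloaded 3 apart from the other 5 libraries. Hba-a1 counts were 12.2, 11.4 and 8.93 times those of Hba-a2 in controls and 10.9, 7.97 and 31.0 times in unloaded 1, 2 and 3. Hba-a2 thus made up 3.13% of alpha counts in unloaded 3 (1084 of 34657, exact 95% interval 2.95% to 3.32%). In the other 5 it made up 7.59% to 11.2%. Between the groups the exact permutation p was 0.9 (n = 3 each), and the log2 difference of 0.37 turned to -0.21 without unloaded 3.

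The split within the beta pair had another pattern. Hbb-bs counts were 9.26, 6.19 and 6.47 times those of Hbb-bt in controls and 8.99, 5.96 and 6.91 times in unloaded libraries. Control 1 and unloaded 1 had the highest ratios, and unloaded 3 lay among the others. Hbb-bt made up 9.75% of beta counts in control 1 and 10.01% in unloaded 1, with exact 95% intervals of 9.37% to 10.1% and 9.70% to 10.3%, and 12.6% to 14.4% in the other 4. The group means of the ratio, 7.31 ± 1.70 and 7.29 ± 1.55 (SD, n = 3), did not differ beyond the spread (exact permutation p = 1.0). The log2 difference of 0.00 went to 0.18 when control 1 was left out, to 0.13 when unloaded 2 was and to 0.03 when unloaded 3 was.

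**Figure D3:**
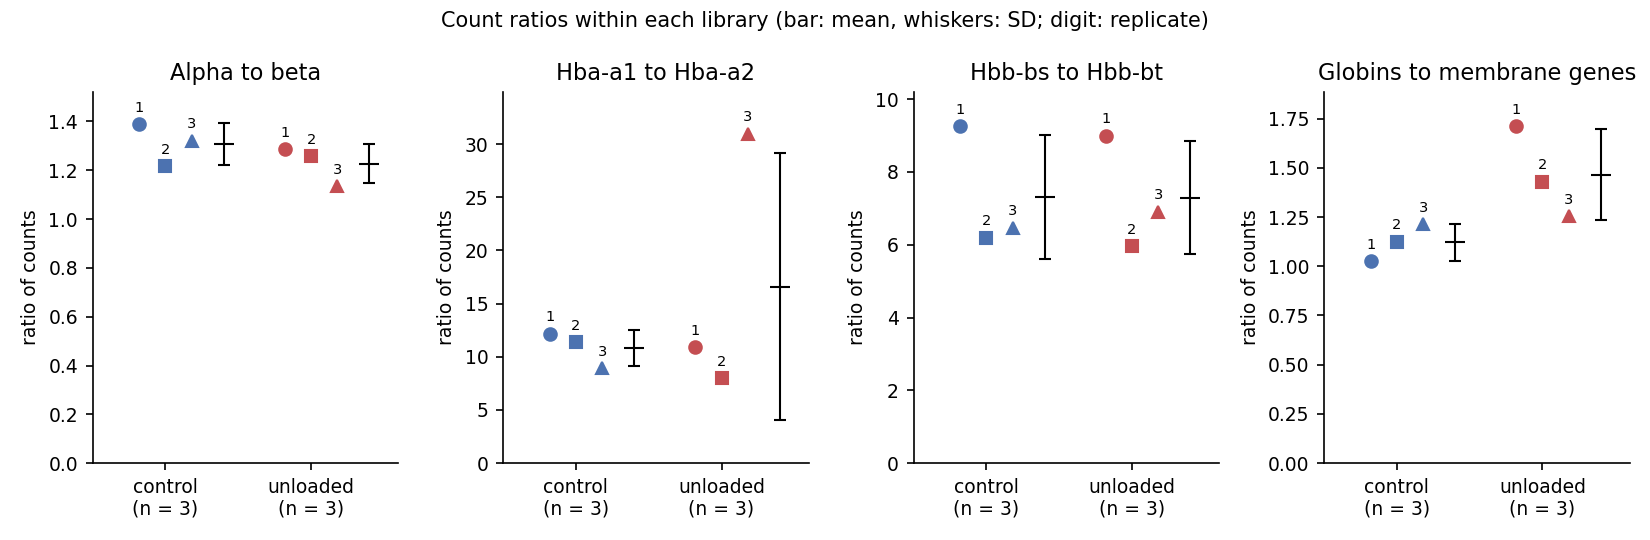
Ratios of counts within each library for alpha to beta, Hba-a1 to Hba-a2, Hbb-bs to Hbb-bt, and the 4 adult globins to 21 red cell membrane genes (vertical axes), with blue points for control, red points for unloaded libraries, digits for the replicate and mean ± SD (n = 3) beside each group. Alpha to beta stays between 1.13 and 1.39, and Hba-a1 to Hba-a2 reaches 31.0 in unloaded 3.

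Other globins were close to absent. The embryonic beta-like genes Hbb-bh1 and Hbb-bh2 had 0 counts in every library, so that levels of up to 0.189 CPM could have been missed in the shallowest of them. The embryonic genes Hbb-y and Hba-x had at most 2 and 3 counts in a library. Myoglobin (Mb), cytoglobin (Cygb) and neuroglobin (Ngb) had at most 1, 4 and 5 counts. The theta-globin gene Hbq1b, which lies between Hba-a1 and Hba-a2, was the only other globin that passed the filter. It had 72, 51 and 133 counts in controls and 69, 122 and 89 in unloaded libraries, which overlapped (log2 0.19 ± 0.34; edgeR adjusted p = 0.957). Its copy Hbq1a had 1, 5 and 3 counts in controls and 5, 16 and 9 after unloading, too few to be tested.

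Heme synthesis supplies the group that each globin chain binds. None of the 14 genes of this list was called by edgeR, with 11 positive and 3 negative fold changes and a median log2 fold change of 0.07, against 0.01 over all genes tested. Alas2, the erythroid enzyme of the committed step, had the smallest p. It was at 129, 116 and 156 CPM in controls and at 174, 209 and 155 CPM in unloaded 1, 2 and 3, with unloaded 3 just under control 3 as for the globin sum. Its log2 fold change was 0.42 ± 0.14 (SE; edgeR adjusted p = 0.801). Slc25a37 (mitoferrin, which brings iron into mitochondria) and Urod had 0.18 ± 0.12 and 0.11 ± 0.10. The count of positive members was 14 of 14 without unloaded 1 and 7 of 14 without unloaded 2, with medians of 0.14 and 0.00.

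Red cell membrane and skeleton genes are made in the same erythroblasts. Of 20 tested genes of this list 15 had a positive fold change and 0 were called, with a median log2 fold change of 0.07. Sptb, which encodes beta-spectrin, was at 243, 207 and 232 CPM in controls and at 298, 321 and 245 CPM after unloading (log2 0.34 ± 0.12; edgeR adjusted p = 0.802). The blood group gene Kel had 0.33 ± 0.14, the band 3 anion exchanger gene Slc4a1 0.22 ± 0.13 and the adducin gene Add2 0.19 ± 0.11. The sum of the 21 listed genes was 3135, 2919 and 3324 CPM in controls and 3013, 3986 and 3213 CPM in unloaded libraries. Without unloaded 1, 19 of 20 were positive with a median of 0.24, and without unloaded 2, 9 of 20 with a median of -0.04.

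Set against these membrane genes, adult globins were higher in each unloaded library than in each control. The ratio of summed globin counts to summed membrane counts was 1.03, 1.12 and 1.21 in controls and 1.71, 1.43 and 1.25 in unloaded 1, 2 and 3. The means were 1.12 ± 0.0942 and 1.46 ± 0.231 (SD, n = 3), a log2 difference of 0.38. It was 0.26 without unloaded 1 and 0.48 without unloaded 3. Leaving out the widely expressed Bsg, Slc2a1, Gypc and Epb41 gave 0.36, with the groups still apart. The ratio to summed heme synthesis counts was 1.65, 1.78 and 1.95 in controls and 2.85, 2.40 and 1.87 after unloading. These overlapped, and the log2 difference of 0.39 was 0.25 without unloaded 1. Per Alas2 count the groups were alike, with 24.9, 28.3 and 25.9 globin counts in controls and 29.7, 27.3 and 26.0 in unloaded libraries, a log2 difference of 0.07. No p-value is given for these ratios, since they rest on the sum over members chosen with earlier results known.

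The unloaded 1 library had high globins but low levels of many erythroid precursor genes. Its sums of heme synthesis, red cell membrane and late erythroblast genes were 0.926, 0.964 and 0.972 times the control mean. Gpx1 weighs on the late erythroblast sum, at 1189 of 2873 CPM in unloaded 1 and at 1191 of 2956.5 CPM in the control means. The globin sum of unloaded 1 was 1.47 times the control mean, while its sum of 22 erythroid precursor genes was 0.736 times and that of 13 mitochondrially encoded genes 0.36 times. In unloaded 2 these were 1.62, 1.21 and 0.942 times, and in unloaded 3 they were 1.15, 1.10 and 0.930 times. Unloaded 1 had both the lowest mitochondrial share and the highest ratio of globins to membrane genes. Among controls, control 3 had the highest mitochondrial share (1.21%) and also the highest ratio (1.21). Any link between this share and the ratio was not tested.

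**Figure D4:**
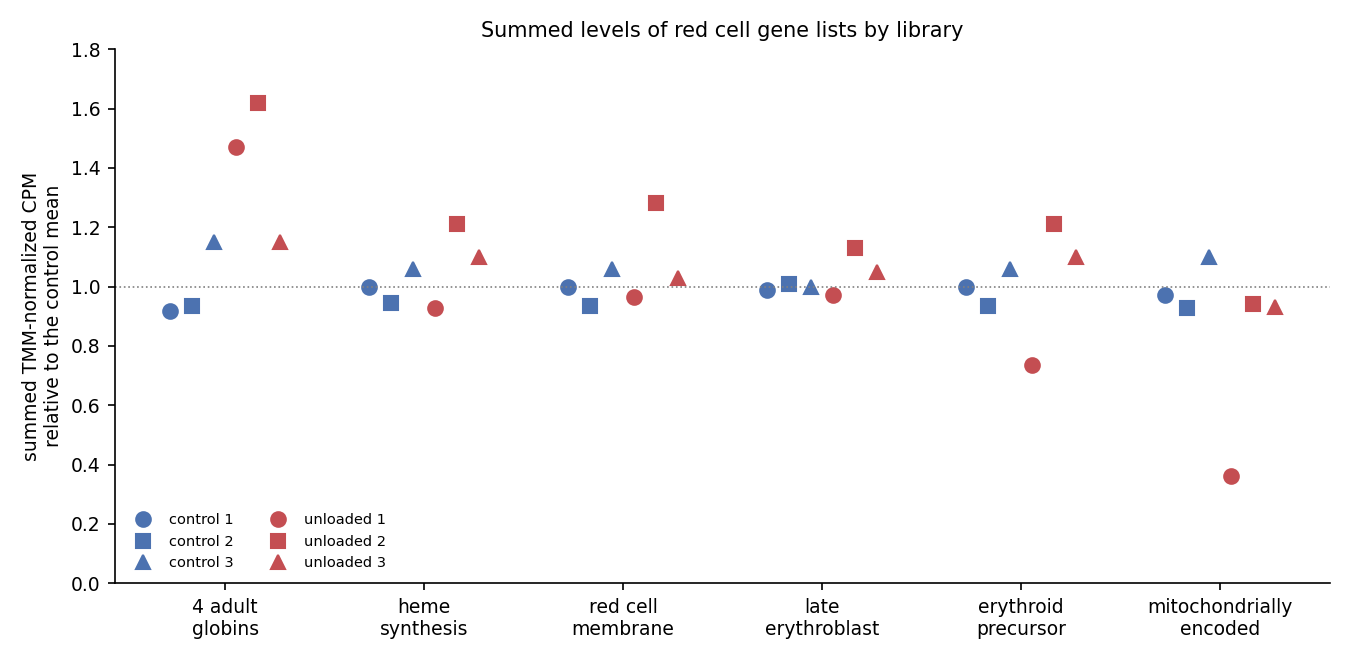
Summed TMM-normalized CPM of the adult globins, of 4 lists of red cell genes and of mitochondrially encoded genes, relative to the control mean (vertical axis), for each of the 6 libraries (blue for control, red for unloaded, marker shape for the replicate). Unloaded 1 stands at 1.47 for globins, 0.736 for erythroid precursors and 0.36 for mitochondrially encoded genes. The late erythroblast points include Gpx1, which weighs on that sum.

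Erythroid precursor genes, which include the transferrin receptor gene Tfrc and the carbonic anhydrase genes Car1 and Car2, had 13 of 22 positive fold changes and 0 calls, with a median log2 fold change of 0.05. The members with the smallest p were Aqp9 (-0.16 ± 0.10), Rhag (0.25 ± 0.18), Tspan33 (0.15 ± 0.11) and Kcnn4 (0.11 ± 0.11). Genes of late erythroblasts and reticulocytes had 17 of 21 positive and 0 calls, with a median of 0.09. Among them were Tent5c (0.26 ± 0.16) and Ubac1 (0.19 ± 0.12). Precursor genes were positive in 20 of 22 without unloaded 1, with a median of 0.18, and in 5 of 22 without unloaded 2, with a median of -0.08. The late genes were positive in 9 of 21 without unloaded 2, with a median of -0.03, and their median was 0.20 without unloaded 1.

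Of 25 tested regulators of globin genes 12 had a positive fold change and 13 a negative fold change, 0 were called, and the median log2 fold change was 0.00. Among the erythroid factors that act at globin promoters and enhancers, Gata1 had a log2 fold change of 0.02 ± 0.14, Klf1 0.01 ± 0.12, Tal1 0.09 ± 0.16 and Lmo2 -0.19 ± 0.17 (SE). Each of these 4 was lowest in unloaded 1, and without it they were at 0.17, 0.12, 0.26 and 0.01, with edgeR adjusted p of 0.597, 0.717, 0.48 and 0.99. Bcl11a, a repressor of embryonic globin genes, was at 77.4, 73.4 and 73.5 CPM in controls and at 80.3, 78.5 and 81.4 CPM after unloading (log2 0.10 ± 0.09; edgeR adjusted p = 0.924). Of the 25 genes, 3 lay below every control and 1 above every control, against 6.4% and 5.46% of genes tested. The smallest p belonged to the mRNA decay gene Zfp36l2 (-0.40 ± 0.15), followed by Cited2 (-0.26 ± 0.12), Nr2c2 (-0.19 ± 0.12) and Ikzf1 (-0.16 ± 0.11), which are also expressed in other marrow cells. The sum of the 25 genes was 4254 to 4565 CPM in controls and 3783 to 4195 CPM after unloading, which did not overlap. Zfp36l2 weighs on this sum, at 782 to 868 CPM in controls and 487 to 737 CPM after unloading. The sum is therefore no measure of the regulators as a group. The split depended on single libraries, with 6 positive and 19 negative without unloaded 2 and 8 positive and 17 negative without control 3.

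Genes listed for protein quality control of unpaired globin and heme had 16 of 20 positive fold changes and 0 calls, with a median log2 fold change of 0.07. The list holds general chaperone and proteasome genes, and the part of other marrow cells in these values was not tested. Hmox1, the heme oxygenase that breaks down heme, was at 58.1, 60.9 and 62.1 CPM in controls and at 107, 69.5 and 68.8 CPM in unloaded 1, 2 and 3. Its groups did not overlap, and unloaded 1 stood far above the rest (log2 0.44 ± 0.16; edgeR adjusted p = 0.804). Without unloaded 1 the log2 fold change was 0.20 (edgeR adjusted p = 0.518). The chaperone gene Hspa8 was at 2564 CPM in unloaded 1 and between 1121 and 1536 CPM in the other 5, and its log2 fold change of 0.41 ± 0.25 was 0.02 without unloaded 1. The list had 15 of 20 positive without unloaded 1, with a median of 0.07. Prdx2, an antioxidant enzyme abundant in red cells, had 0.13 ± 0.10, and the mitochondrial chaperone gene Hspa9 0.15 ± 0.11.

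Leaving out the 4 members, the genes whose log2 CPM most resembled the log2 of the globin sum over the 6 libraries were Qtrt1, Pced1a, Rgs12, Sidt1, Pdcd11, Cd8b1, Thy1 and Atg4b. Their Pearson correlations ran from 0.994 for Qtrt1 to 0.967 for Atg4b. They were picked from 10039 protein-coding genes with a mean of at least 5 CPM. With 6 libraries and so many genes, this is a description. Cd8b1 and Thy1 are genes of T cells. Cd8b1 was at 5.03, 3.98 and 7.05 CPM in controls and at 10.6, 13.5 and 7.72 CPM in unloaded libraries (log2 0.99 ± 0.27; edgeR adjusted p = 0.667). Markers of T and NK cells summed to 142.9 to 173.4 CPM in controls and 169.0 to 201.1 CPM after unloading, with 9 of 11 positive. Markers of megakaryocytes and platelets summed to 124 to 127 CPM in controls and 84.0 to 107 CPM in unloaded libraries, which did not overlap. B cell markers were negative in 10 of 10, with a median log2 fold change of -0.22 and overlapping sums of 1938 to 3626 and 1334 to 2885 CPM. Without unloaded 3, which had the lowest of these sums, they were negative in 7 of 10 with a median of -0.13. Neutrophil markers were negative in 10 of 12, with a median of -0.07. None of the markers in these 4 lists was called. The part of these cells in the globin values was not tested. Within the alpha and beta pairs the same correlation was 0.995 for Hba-a1, 0.990 for Hbb-bs, 0.813 for Hbb-bt and 0.614 for Hba-a2, and each of these genes is itself part of the sum. For the red cell genes Alas2, Slc4a1 and Car2, which were chosen after their values were seen, it was 0.962, 0.888 and -0.206.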

How the data were processed

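Total RNA was isolated by TRNzol and sequenced after NEBNext Ultra library preparation, per the labels' protocols. The submitters' processing notes name CASAVA, HISAT2 2.0.5, featureCounts 1.5.0-p3 and mm10. Not given in the sources used here were the annotation release, whether counting used strand, and how reads that align to more than 1 place were counted. In the table deposited by the authors, values were raw counts per gene, without normalization, next to a gene length. Libraries totalled 15850986 to 17775506 counts, so 3 counts stand for 0.169 to 0.189 CPM.

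Genes were kept by filterByExpr (15015 of 54532), scaled with TMM and compared with edgeR 4.0.16 (glmQLFit, glmQLFTest) in R 4.3.3, adjusted by the Benjamini-Hochberg method over all genes and called under 0.05. SEs were derived from the log2 fold change and the F statistic. Ratios within a library were compared by two-sided exact permutation tests. Alternatives were other scalings, DESeq2 1.42.0, limma-voom (limma 3.58.1), other filters, protein-coding genes alone, scaling without globins and the 20 most counted genes, summed copies, a replicate block and each library left out. List counts and fold changes of list genes with each library left out were alternatives chosen after the data had been seen.

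Members and gene lists were chosen with earlier results of these data known. Text names the members, other globins, up to 4 genes with the smallest p per red cell list, and the 8 genes most like the globin sum; other genes named are examples chosen after their values were seen. Ahsp, and its planned ratio to alpha, are not analysed here. Sequences come from GENCODE M21 and RefSeq (GRCm38.p6). Some genes that the naming rule picked are not reported here.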

Additional observations from a re-analysis of the deposited data

How the results depend on the processing

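The fold changes of Hba-a1, Hbb-bs and Hbb-bt were positive under every alternative run. Hbb-bs passed under DESeq2 (adjusted p = 0.0374) and edgeR without a low-count filter (0.00726), and Hbb-bt without that filter (0.0067). Otherwise the edgeR and limma-voom adjusted p of the 4 genes ran from 0.0505 to 0.999. Without the low-count filter the SE was nearly the same for all 4 genes (0.125 to 0.128), while that of Hba-a2 was 0.439 in the main fit. Adjusted p-values from that setting thus take little account of the spread of each gene. For Hba-a2 the log2 fold change ran from -0.16 (without unloaded 2) to 0.79. The number of genes called, 0 by edgeR with 879 at an unadjusted p under 0.05, was 35 by DESeq2, 183 without a low-count filter, 1 with the replicate number as a block and 0 to 5 with a library left out (5 without unloaded 1); the cause was not tested. With a library left out, the log2 difference ran from -0.21 to 0.77 for the Hba-a1 to Hba-a2 ratio and from -0.16 to 0.18 for the Hbb-bs to Hbb-bt ratio. The other ratios kept their direction under every alternative run. Over all genes tested, libraries with the same number did not deviate together (correlations of 0.0309, -0.0633 and 0.0185), so the numbers were not taken as pairs. The Hbb-bs to Hbb-bt ratio, however, was highest in the number 1 library of each group. The SE of Hbb-bt was 0.16 with the replicate block against 0.22 in the main fit. With the replicate block the log2 fold changes were 0.47 for Hba-a1, 0.16 for Hba-a2, 0.54 for Hbb-bs and 0.54 for Hbb-bt. In the block, ratio differences keep the same mean (-0.09 for alpha to beta, sign-flip exact p = 0.5), where 3 pairs cannot go below 0.25. Counting error is small beside the spread between libraries.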

Other observations

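Globin pseudogenes were also looked up. The alpha pseudogene Hba-ps4, on mm10 chromosome 17 from 26286363 to 26287061, had 1, 5 and 1 counts in controls and 7, 9 and 4 in unloaded libraries, which overlapped. The pseudogenes Hba-ps3 and Hbb-bh3 had 0 counts in every library. By raw counts among all genes of the table, Hba-a1 ranked 14 to 27 and Hbb-bs 18 to 52 across the 6 libraries. Hba-a2 ranked 3636 in unloaded 3 and 395 to 1627 in the other 5.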
